A study of Mus musculus with 20 samples.

Results

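The 36 genes described here carry cells through the division cycle and were taken by symbol from a fixed list, out of 43280 genes in the count files. They comprise the D cyclins *Ccnd1* and *Ccnd2*, the E and A cyclins *Ccne1*, *Ccne2* and *Ccna2*, the B cyclins *Ccnb1* and *Ccnb2* with their kinase *Cdk1*, 6 mitotic kinases and checkpoint genes, 8 replication licensing genes, 3 genes of DNA synthesis, 7 genes of the spindle, kinetochore and chromosome structure, 3 transcription factors and the proliferation marker *Mki67*. Every one of the 36 symbols was found in all 12 RNA-seq libraries.

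D cyclins couple growth signals to entry into the cycle by activating the kinases that phosphorylate the retinoblastoma protein, which releases E2F factors. E2F then drives the genes of S phase, such as the MCM helicase subunits, PCNA and ribonucleotide reductase. Genes of G2 and mitosis are induced later, through B-MYB and FOXM1, and B cyclins with CDK1 bring the cell into mitosis. In the embryonic gut the mesenchyme divides as the organs grow, whereas most stromal cells of the adult intestine divide rarely. Polycomb repressive complex 2 (PRC2), of which EED is a core subunit, deposits H3K27me3 and is known to silence the *Cdkn2a* locus, whose products hold the cycle back.

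GFP+ mesenchymal cells were sorted from stomach and intestine of embryos at E13.5, whose strain the labels give as C57BL/6 and the study's reporting summary as mixed backgrounds. Control embryos were Bapx1-cre;Rosa26mTmG and knockout (KO) embryos were Eedfl/fl;Bapx1-cre;Rosa26mTmG, so that both genotypes shared the Cre driver, expressed under *Bapx1* in the mesenchyme, and the reporter, which marks cells that had Cre with membrane GFP. Adult GFP+ cells came from the small intestine of mice at about 10 weeks of age with a tamoxifen-inducible *Pdgfrb*-CreERT2 and Rosa26mTmG, with or without Eedfl/fl. Per the study's methods, tamoxifen was given for 5 days and mice were dissected 2 days later. Each of the 6 groups held 2 libraries, and accessible regions were available as 4 peak lists, 1 for each embryonic group. Nothing in the sources used here says which libraries share embryos or whether cells were pooled, so the p-values measure the spread between these libraries only.

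Counts on genes reached 30236159 to 39606157 in each embryonic library and 11404712 to 15903642 in each adult library. *Eed* itself fell in both embryonic organs, from 40.1 and 41.5 CPM (counts scaled to library size by TMM) in the control stomach to 11.5 and 7.40 CPM in the KO stomach, and from 38.1 and 40.2 to 10.7 and 8.59 CPM in the intestine. In the adult it was at 29.7 and 33.4 CPM in the control and at 25.7 and 25.05 CPM in the libraries labelled *Eed* KO, a log2 fold change of -0.32 ± 0.21 (SE) that missed the threshold (adjusted p = 0.317). The KO libraries lay below the controls at both stages, and the fall was called in the embryo and not in the adult. The study separately examined the deletion efficiency of *Eed* in isolated adult pericryptal cells, and those values were not used here. Mesenchymal markers summed to 13356 to 24729 CPM in the embryonic libraries, and macrophage and leukocyte markers to 4.69 to 13.0 CPM.

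In the control embryonic organs the cell cycle genes were abundant. On a scale that corrects for gene length (transcripts scaled by length and library, TPM), the 36 genes had a median level of 87.9 TPM in the control intestine and 82.1 TPM in the control stomach. *Ccnd2* had the highest level in each, at 519 and 424 TPM, and *Cenpe*, a mitotic kinesin of the kinetochore, had the lowest, at 7.98 and 5.40 TPM. All values from here on that are given for single libraries are CPM, in the order replicate 1 then replicate 2, and are compared between libraries and not between genes.

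The first comparison asked whether the 2 organs differ in the absence of any perturbation. In the fit without a term for replicate number, none of the 36 genes differed between control intestine and control stomach at an adjusted p under 0.05, a threshold that 6.83% of the 16218 tested genes passed, while 1 gene (*Rrm2*) passed at an unadjusted p under 0.05 and DESeq2 also called 0 genes. A block of same-numbered libraries within each genotype gave 3 genes higher in the intestine, as were 6.78% of all genes. Whether such libraries share embryos is not stated. *Mcm5*, a subunit of the replicative helicase, was at 270.0 and 260.0 CPM in the intestine and at 250.3 and 263.5 CPM in the stomach, and these ranges overlapped. *Cdk1* was at 101 and 109 CPM in the intestine against 90.2 and 92.6 CPM in the stomach, slightly higher in both intestinal libraries, with a log2 fold change of 0.19 ± 0.09 and an adjusted p of 0.359. The direction was nonetheless shared by most of the list, with a positive log2 fold change for 32 of 36 genes against 50% of all genes, and a median of 0.17 against 0.00 over all genes. The median was 0.07 without control stomach replicate 1 and 0.09 without control intestine replicate 2. Endothelial markers differed as well, with 4 of 8 higher and 1 lower in the control intestine, and their part in these values was not tested. In 18 genes both intestinal libraries lay above both stomach libraries, a pattern seen for 24.5% of all genes. *Ccnd1* went the other way, at 90.6 and 56.6 CPM in the intestine and 89.2 and 114 CPM in the stomach, but its groups overlapped (log2 fold change -0.47 ± 0.22, adjusted p = 0.354).

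Loss of *Eed* was then compared with control in the stomach. Here 12 of the 36 genes passed the threshold, which 7.91% of all genes passed. Of these, 11 fell, against 1.95% of all genes, and only *Ccnd1* rose, against 5.96% of all genes. The 11 genes that fell were *Ccne2*, *Cdc20*, *Cdc6*, *Birc5*, *Tyms*, *Pcna*, *Rrm2*, *Mcm5*, *Ccnb1*, *Mcm6* and *Mcm7*, with log2 fold changes of -0.62 to -0.38. The falls were small. The cutoffs of the study, which also ask for a log2 fold change above 1 in size, were applied to this fit. None of the 11 passed them (0.808% of all genes did, with a fall). *Ccnd1*, which links growth signals to the start of the cycle, passed them in the stomach, as did 4.84% of all genes with a rise. RNA of bulk sorted cells cannot separate a smaller share of dividing cells from less of each transcript in each dividing cell.

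**Figure D1:**
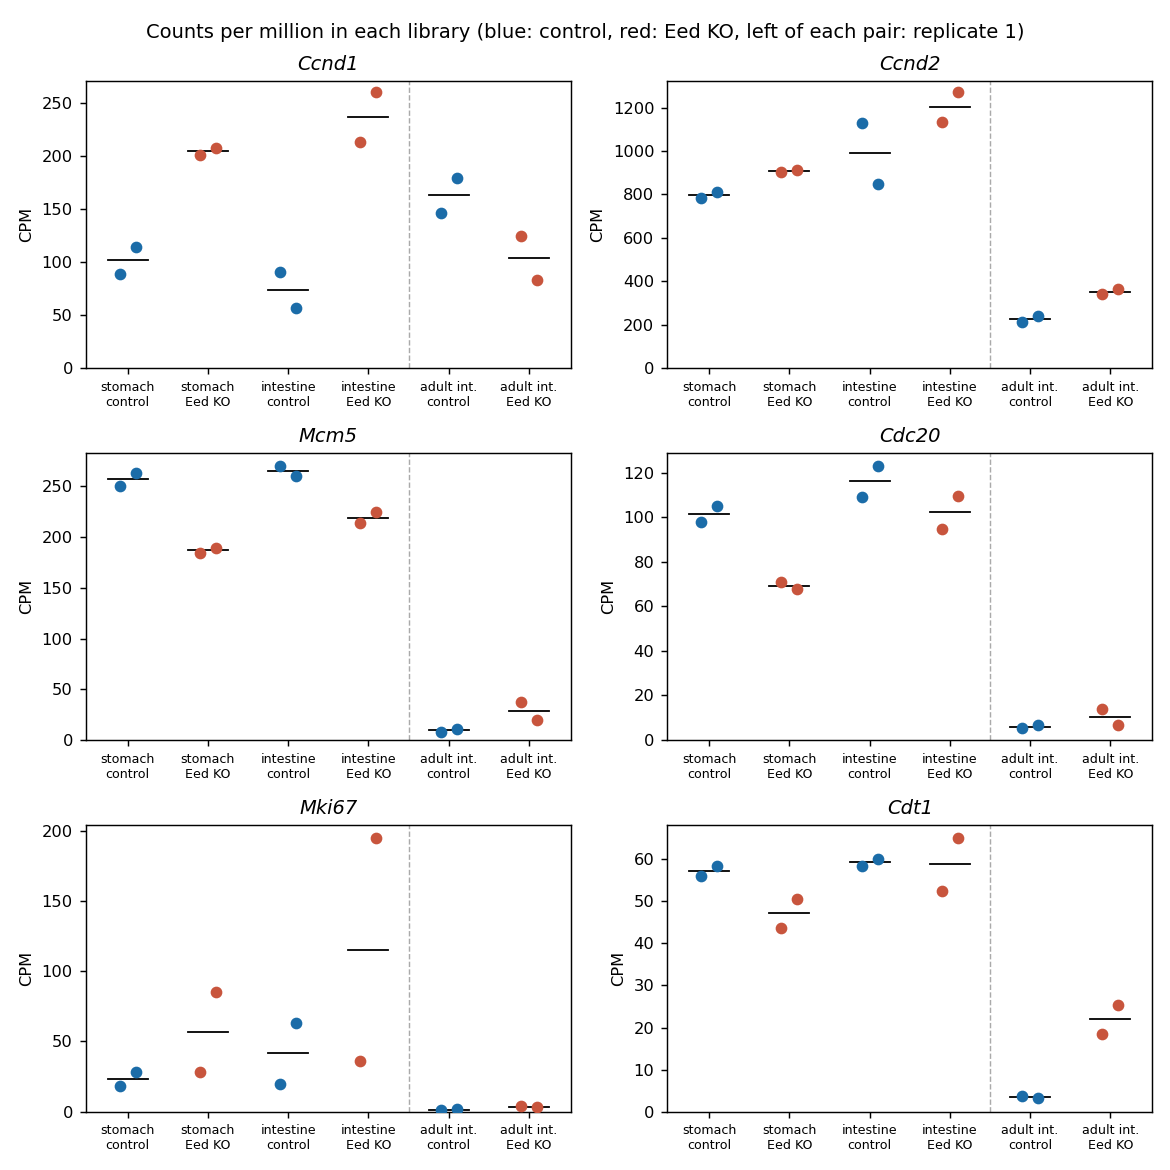
CPM of 6 cell cycle genes in each of the 12 libraries, with blue points for control, red points for *Eed* KO, a black line at the mean of 2 libraries and a dashed line between the E13.5 and the adult groups, which were scaled separately. *Ccnd1* was higher in every KO library than in every control library of the embryo, *Mcm5* and *Cdc20* were lower in both KO stomach libraries, and *Mki67* differed between the replicates of each embryonic group, with overlap of KO and control in both embryonic organs.

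Genes of DNA synthesis fell as a complete group in the stomach. *Pcna*, the sliding clamp of DNA polymerase, was at 236 and 251 CPM in the control and 190.1 and 159 CPM in the KO (log2 fold change -0.48 ± 0.12, adjusted p = 0.0476). *Rrm2*, the regulated subunit of ribonucleotide reductase, went from 132 and 144 to 101 and 97.6 CPM (-0.48 ± 0.09, adjusted p = 0.0192). *Tyms*, which makes thymidylate, went from 94.8 and 93.4 to 69.5 and 65.0 CPM (-0.48 ± 0.09, adjusted p = 0.0200). In all 3 genes the KO libraries lay below the control libraries without overlap.

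Of the 8 licensing genes, which load and form the replicative helicase, 4 fell and the other 4 did not pass the threshold, although both KO stomach libraries lay below both controls for all 8. *Mcm5* was at 250.3 and 263.5 CPM in the control stomach and at 185 and 189 CPM in the KO (-0.46 ± 0.08, adjusted p = 0.0185), the smallest adjusted p of the list. *Cdc6*, the loader of the helicase, was at 35.5 and 43.8 against 27.9 and 26.9 CPM (-0.53 ± 0.12, adjusted p = 0.0396). *Cdt1*, its partner in loading, was at 55.9 and 58.4 against 43.8 and 50.5 CPM and did not pass.

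Among the cyclins and the mitotic genes of the stomach, *Ccne2*, the cyclin of the G1 to S transition, had the largest fall, from 48.6 and 56.9 to 35.97 and 32.7 CPM (-0.62 ± 0.12, adjusted p = 0.0197). *Cdc20*, the activator of the anaphase-promoting complex, was at 97.7 and 105 CPM in the control and at 70.7 and 67.8 CPM in the KO (-0.55 ± 0.11, adjusted p = 0.0253). *Birc5*, which encodes survivin of the chromosomal passenger complex, was at 73.0 and 72.5 against 55.7 and 45.4 CPM (-0.52 ± 0.12, adjusted p = 0.0347). *Cdk1*, the kinase of mitotic entry, was at 90.2 and 92.6 against 70.7 and 71.5 CPM, which did not overlap but had an adjusted p of 0.0613. Without a call but in the same direction were *Ccne1*, *Ccna2* and *Ccnb2*, and the kinases *Plk1*, *Aurka*, *Aurkb* and *Bub1*. In all, 31 of 36 log2 fold changes were negative against 49.9% of all genes, with a median of -0.38, and the KO libraries lay below the control libraries for 26 genes, against 27.3% of all genes.

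The calls in the stomach rested on all 4 libraries together, while the median of the 36 genes stayed negative with 1 library left out. That median was -0.46 without control replicate 1 and -0.31 without control replicate 2, with 31 and 30 of 36 genes negative. It was -0.35 without KO replicate 1 and -0.41 without KO replicate 2, with 28 and 32 negative. With only the 4 stomach libraries in the fit, 7 genes passed, of which 6 fell. With DESeq2 and 1 unwanted-variation factor estimated from the spike-in RNA (RUVg), 19 genes fell and none rose, with 4.77% of all genes called lower and 3.27% higher under that setting, and *Ccnd1* had an adjusted p of 0.381. The study likewise used DESeq2 after spike-in normalization with RUV-seq. Under this setting 5 of the 36 genes passed its cutoffs with a fall, as did 310 of 16218 genes, and 0 with a rise.

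In the intestine, *Ccnd1* was the sole gene of the 36 past the threshold, which 3.06% of all genes passed in either direction 2.66% with a rise and 0.407% with a fall. It was at 90.6 and 56.6 CPM in the control and at 214 and 261 CPM in the KO, a log2 fold change of 1.69 ± 0.23 with an adjusted p of 0.0118. In the stomach it went from 89.2 and 114 to 202 and 208 CPM (1.01 ± 0.22, adjusted p = 0.0369). All 4 KO libraries thus stood above all 4 control libraries. The call in the intestine was lost without control replicate 2, the lowest library, where the adjusted p was 0.0519, and the call in the stomach was lost without any 1 of its 4 libraries. *Ccnd2*, the other D cyclin, was at 1130.4 and 849 CPM in the control and 1134 and 1269.8 CPM in the KO intestine and did not pass (0.28 ± 0.14, adjusted p = 0.474). Exons of *Ccnd1* share 818 bases with *Oraov1* on the opposite strand, which had at most 669 counts in any library. The next largest such overlaps by share of exons were 609 bases of *Ccne2* with *Ints8* (at most 3647 counts) and 512 of *Ccna2* with *Exosc9* (at most 1529). The part of these overlaps in any comparison was not tested.

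None of the other 35 genes passed in the intestine. *Mcm5* was at 214 and 225 CPM in the KO against 270.0 and 260.0 CPM in the control, lower in both libraries, but with an adjusted p of 0.161 (log2 fold change -0.27 ± 0.08). *Cdk1* was at 85.2 and 95.03 against 101 and 109 CPM (-0.22 ± 0.09, adjusted p = 0.369). A negative log2 fold change was found for 30 of 36 genes against 48.9% of all genes, with a median of -0.20. Without KO intestine replicate 1 the median was -0.09 with 22 negative genes, and without KO intestine replicate 2 it was -0.34. In the fit of all libraries, 18 genes had both KO libraries below both controls, against 16.4% of all genes. With RUVg, 11 genes fell, as did 4.4% of all genes, and *Ccnd1* rose.

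**Figure D2:**
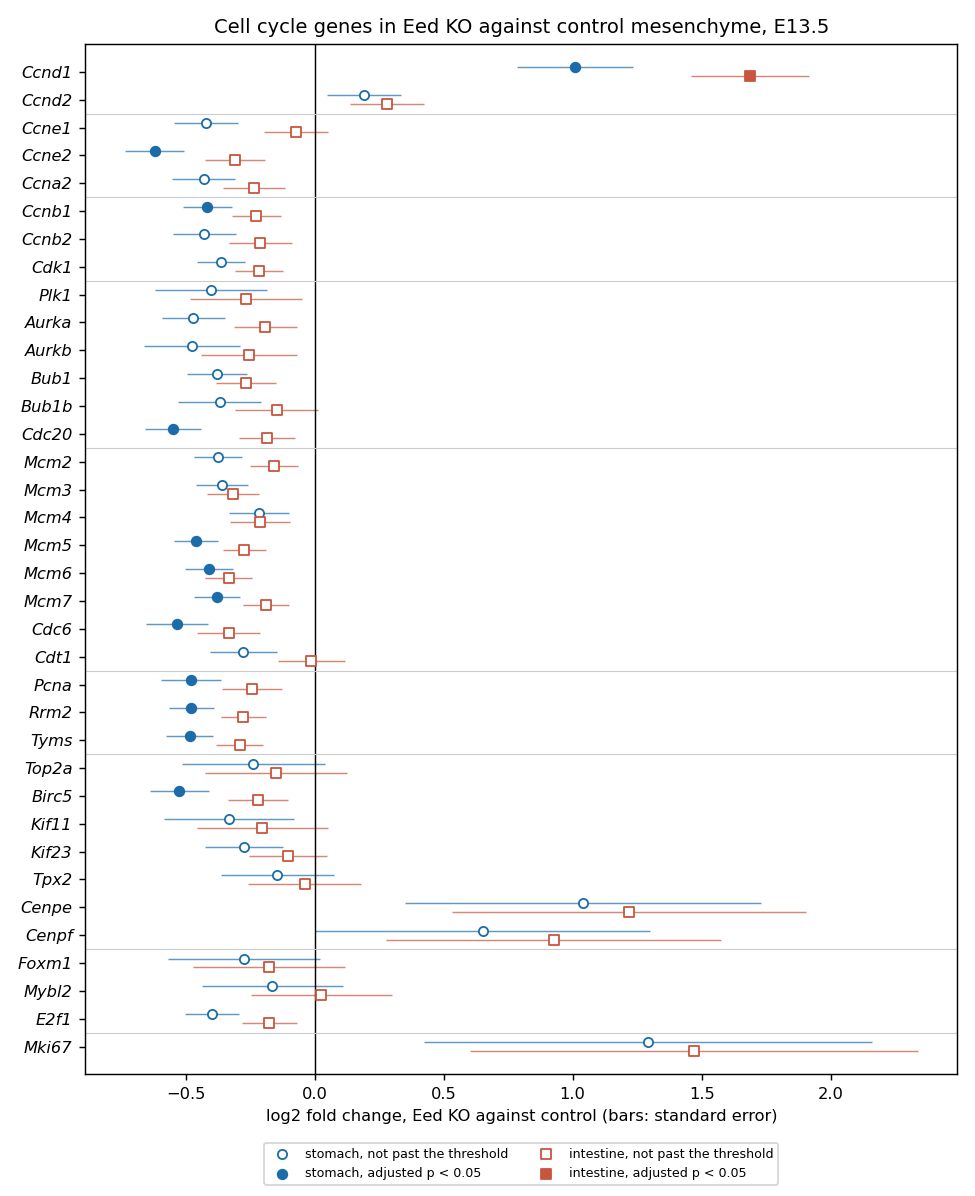
Log2 fold change of each of the 36 genes in *Eed* KO against control mesenchyme at E13.5, in the stomach (blue circles) and the intestine (red squares), with standard errors as bars, filled symbols for an adjusted p under 0.05 and grey lines between the role groups. Of the 36 genes, 31 lie left of 0 in the stomach and 30 in the intestine, while *Ccnd1* lies right of 0 in both.

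These directions are relative to the rest of the transcriptome. The KO libraries held fewer counts on the spike-in RNA, 12108 and 4871 in the stomach against 37590 and 36020 in its control, and 14932 and 5501 in the intestine against 26227 and 26837. Scaling by the spike-in totals moved the median of all genes to 2.39 for stomach and 1.85 for intestine on the log2 scale, and with that scaling 36 and 27 of the 36 genes were called higher in the KO, as were 95.1% and 84.3% of all genes. Relative to those shifts, the median of the 36 genes was still lower, at 2.04 against 2.39 and at 1.70 against 1.85. Endothelial markers summed to 18.7 to 19.6 CPM in the control stomach and 30.02 to 52.7 CPM in the KO stomach, and to 16.8 to 22.5 and 55.5 to 55.9 CPM in the intestine. With TMM scaling 5 and 4 of 8 were called higher, against 5.96% and 2.66% of all genes. In the stomach 2 of 9 mesenchymal markers fell and in the intestine 0 of 9, against 1.95% and 0.407% of all genes. Of 10 epithelial markers 1 rose in the stomach and 2 in the intestine. Of 4 macrophage and leukocyte markers tested in the stomach, 1 was called lower, against 1.95% of all genes. The other 3 had positive log2 fold changes without a call, with both KO libraries above both controls, and the median of the 4 was 1.86. The part of these cells in the results above was not tested.

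The proliferation marker *Mki67* had wide errors and no call in either organ. It was at 18.1 and 28.2 CPM in the control stomach and 28.1 and 85.4 CPM in the KO stomach, and at 20.0 and 63.3 CPM in the control intestine and 35.96 and 195 CPM in the KO intestine. The groups overlapped in each organ, and the log2 fold changes of 1.29 ± 0.87 and 1.47 ± 0.87 had adjusted p-values of 0.429 and 0.565. With replicate 2 of the KO left out, its stomach log2 fold change was 0.28 and its intestinal one -0.21, and with RUVg it was -1.71 and -1.30, so no direction can be given. *Cenpe* and *Cenpf*, large proteins of the kinetochore, had the same pattern, with 17.52 and 78.8 CPM and with 32.8 and 128 CPM in the 2 KO intestine libraries.

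In each of the 4 embryonic groups these 3 genes were higher in replicate 2 than in replicate 1. The log2 difference between the replicates of the KO intestine was 2.42 for *Mki67*, 2.14 for *Cenpe* and 1.95 for *Cenpf*, whereas the median over the 36 genes was 0.22. They are among the longest genes of the list, with 10075, 7813 and 15433 exonic bases, where the median was 3670.5. Over all genes with a mean of at least 1 CPM, the median log2 difference in the KO intestine was -0.21 for genes under 2000 exonic bases and 0.31 for those of 8000 or more, and in the KO stomach it was -0.13 and 0.20. In the controls the spread was smaller, -0.02 and 0.04 for intestine and -0.07 and 0.09 for stomach, although *Mki67*, *Cenpf* and *Cenpe* differed by 1.64, 0.75 and 0.68 between the control intestine libraries. *Top2a*, the DNA topoisomerase of dividing cells, has 9013 exonic bases and differed by 0.76 in the KO intestine. The part of length in the values of *Mki67*, *Cenpe* and *Cenpf* was not tested.

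**Figure D3:**
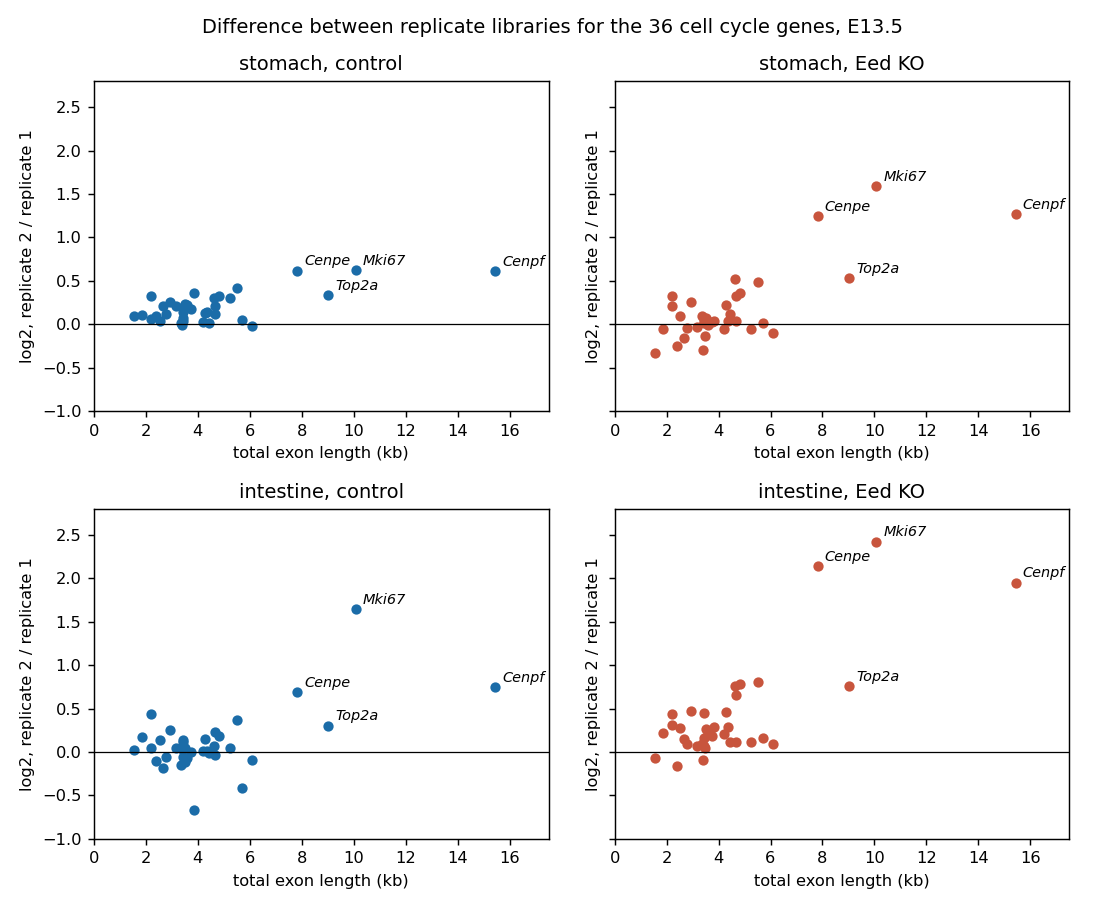
Log2 ratio of replicate 2 to replicate 1 (0.5 CPM added to each) of the 36 genes against total exon length in kb, in the 4 embryonic groups, with 1 point per gene and *Mki67*, *Cenpe*, *Cenpf* and *Top2a* named. *Mki67*, *Cenpe* and *Cenpf* lie above 0.6 in all 4 groups, and most genes under 6 kb lie near 0.

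To learn whether the 2 organs differ once *Eed* is lost, the KO organs were compared, and the effects themselves were compared. In the fit without a replicate term, intestine against stomach gave 2 genes higher of the 36 in the KO, against 6.33% of all genes called and 2.32% called higher. With the block of same-numbered libraries within each genotype, 23 were called higher, as were 9.82% of all genes. Whether those libraries share embryos is not stated, and the values below are from the fit without it unless another setting is named. *Rrm2* was at 138 and 147 CPM in the KO intestine and 101 and 97.6 CPM in the KO stomach (0.52 ± 0.09, adjusted p = 0.0156). *Cdc20* was at 94.6 and 110 CPM against 70.7 and 67.8 CPM (0.56 ± 0.11, adjusted p = 0.0272). Smooth muscle markers summed to 3243 and 5520 CPM in the KO intestine and to 1820 and 2059 CPM in the KO stomach, 5 of 6 were called higher, and their part in this comparison was not tested. All 36 log2 fold changes were positive, against 49.8% of all genes, with a median of 0.34. Without KO intestine replicate 2, 29 were positive and the median was 0.18. In the fit of all libraries, 26 genes had both intestinal libraries above both stomach libraries, against 20.5% of all genes. The count of calls was 4 without KO intestine replicate 1, 1 without KO intestine replicate 2, 0 without either KO stomach library and 0 with the 4 KO libraries alone, and it was 18 with RUVg, which called 5.93% of all genes higher.

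In the fit without a replicate term, the *Eed* effect was not shown to differ between the organs for any of the 36 genes. At the adjusted p under 0.2 that the study used for this test, 0.512% of all genes passed and 0 of the 36 genes did, also with DESeq2, and at an unadjusted p under 0.05 only *Cdc20* passed. Its stomach effect was -0.55 and its intestinal effect -0.19, a difference of -0.36 ± 0.16 (adjusted p = 0.847). For *Ccnd1* the stomach effect was smaller than the intestinal effect by 0.68 ± 0.32 on the log2 scale (adjusted p = 0.908). The differences of the 36 genes were all negative, against 52.5% of all genes, with a median of -0.19 against -0.01 over all genes. That pattern rested on single libraries, with 21 negative genes and a median of -0.06 without KO intestine replicate 2, and with 26 and -0.10 without control stomach replicate 2. Under spike-in scaling 35 differences were positive, with a median of 0.29 against 0.53 over all genes. With the block of same-numbered libraries, 1 of the 36 differences passed, a negative one, as did 2.9% of all genes. With these 2 libraries a group, a p that misses the threshold does not show that the organs respond alike.

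**Figure D4:**
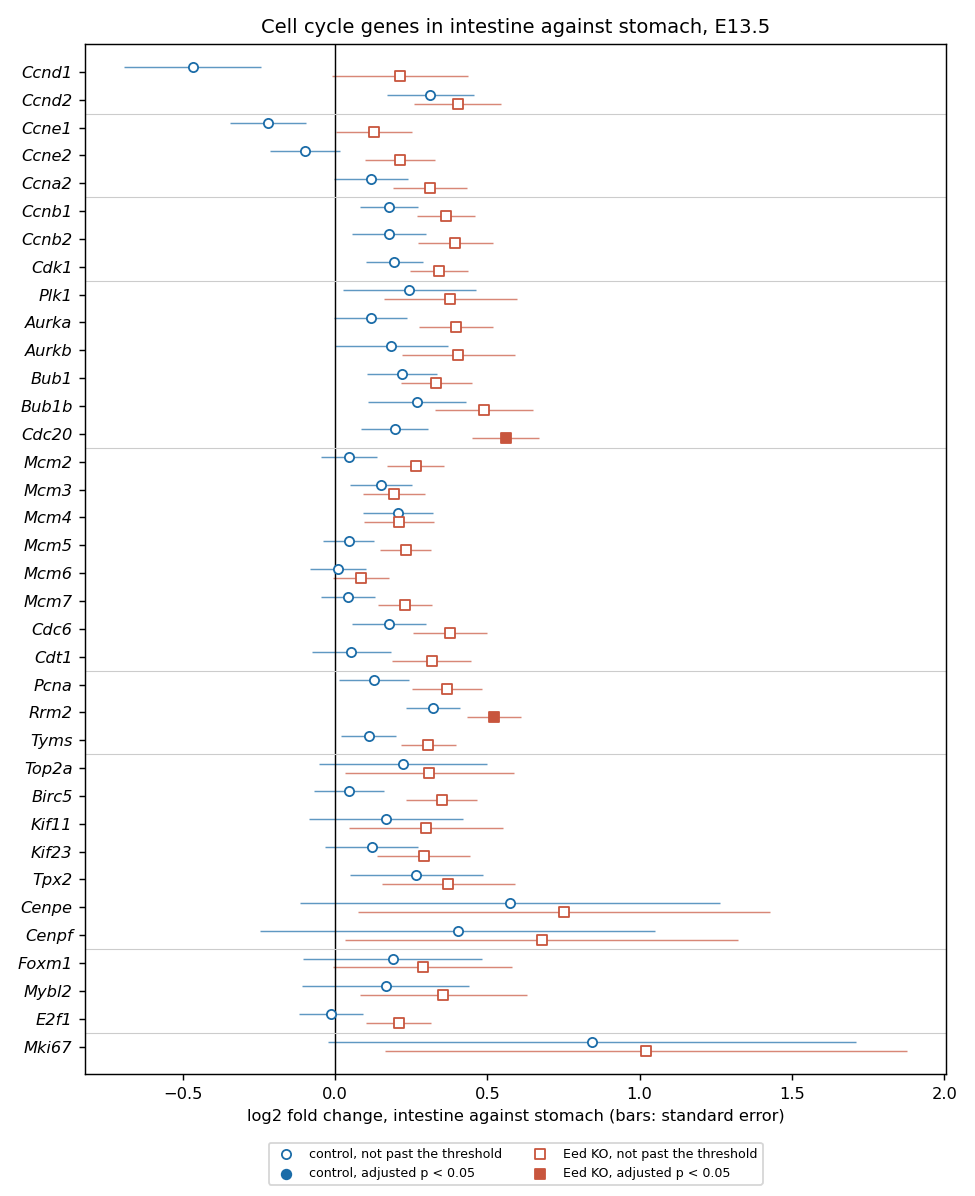
Log2 fold change of each of the 36 genes in intestine against stomach at E13.5, in control (blue circles) and *Eed* KO mesenchyme (red squares), with standard errors as bars and filled symbols for an adjusted p under 0.05. In the KO all 36 points lie right of 0 and *Rrm2* and *Cdc20* are filled, and in the control 32 lie right of 0 and none is filled.

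The wider machinery was described with 5 lists of other genes. In the KO stomach 1.95% of all genes were called lower. There 7 of 46 other S phase genes fell and none rose, including *Tk1* (thymidine kinase, log2 fold change -0.60), *Gmnn* (geminin, the inhibitor of CDT1, -0.56) and *Gins1* (a helicase subunit, -0.55). Of 51 other G2 and M phase genes 3 fell, *Spc24* of the kinetochore (-0.70), *Mad2l1* of the spindle checkpoint (-0.51) and the phosphatase *Cdc25b* (-0.47). *Skp2*, which targets p27 for degradation (-0.42), and *E2f3*, an activating E2F factor (-0.46), were the single calls in the lists of 19 other cyclins, kinases and regulators and of 17 E2F, RB and DREAM genes. The medians of the S phase and of the G2 and M lists were -0.35 and -0.31 for stomach and -0.21 and -0.15 for intestine. In the intestine 0 genes of these 4 lists passed, against 3.06% of all genes. The medians were 0.00 and 0.01 over all genes.

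Several inhibitors of the cycle went the other way. Of 16 genes listed as brakes, 6 were called higher in the KO stomach, against 5.96% of all genes. In the KO intestine 5 were called higher, against 2.66% of all genes. None was called lower, while 4 of the 16 had a negative log2 fold change in each organ. The list also holds *Mdm2*, which restrains p53. *Cdkn2a*, which encodes p16 and p19ARF, had 2 counts in all in the 2 control stomach libraries and 2813 in the KO, a ratio of 1406 (95% counting interval 389 to 11617). In the intestine it had 1 and 945 counts, a ratio of 846 (151 to 33449), and the intervals cover counting error only. Per library, *Cdkn2a* was at 36.4 and 39.9 CPM in the KO stomach and at 10.3 and 15.8 CPM in the KO intestine, lower in the intestine by a called log2 fold change of -1.55 (adjusted p = 0.0170). *Cdkn2b*, which encodes p15, went from 9 to 272 counts in the stomach and from 2 to 120 in the intestine (ratio 53.7, interval 14.5 to 449).

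*Cdkn1a*, which encodes p21, was at 3.01 and 3.98 CPM in the control stomach and 9.76 and 12.6 CPM in the KO (1.68 ± 0.31, adjusted p = 0.0196). In the intestine it was at 1.66 and 1.08 against 4.62 and 7.70 CPM (2.16 ± 0.34, adjusted p = 0.0205). *Cdkn2c*, which encodes p18, rose by 1.95 and 1.55 on the log2 scale, and *Ccng1*, a target of p53, by 1.12 and 0.62. *Trp53inp1*, another p53 target, rose in the stomach (1.37). *Cdkn1c*, which encodes p57, did not pass in either organ. It was at 1656.2 and 1656.8 CPM in the control stomach and 1593 and 1643 CPM in the KO.

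All 36 genes had an accessible region within 1000 bp of the gene start in each of the 4 embryonic groups, as did 86.9% of the 16217 tested genes with a single location. The peak lists were called by the authors on pooled replicates, so that no test was possible. The median fold enrichment over background at the 36 genes lay between 7.74 and 8.09 in the 4 lists and between 6.46 and 6.91 over all genes. *Ccnd2* had the lowest value in each list, 2.48 to 2.69. Peaks were called separately in each list and differed in width, so KO and control values are not set against each other.

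Promoter sequences from RefSeq (GRCm38.p6, 250 bases before to 50 after the start) were matched for 28 of the 36 genes. A CCAAT box (CCAAT or ATTGG) was found in 21 of these 28 genes (75%) and in 41.1% of 27025 genes with a promoter. The CHR element of mitotic genes (TTTGAA or TTCAAA) was found in 12 genes (42.9%, against 20.2%). An E2F core (TTGGCGC or its reverse complement GCGCCAA, and likewise TTCCCGC or its reverse complement GCGGGAA) was found in 9 genes (32.1%, against 7.79%). An E2F core read as GCGCCAA and followed by T also holds a CCAAT box, and a match in these letters is not evidence of a bound factor. The 150 bases before the start are given for *Mcm5*, *Mcm6* and *Cdc20*, which fell in the KO stomach, and for *Cdk1* and *Mki67*, with the searched letters in capitals, 5′ to 3′ on the strand of the gene.
Mcm5, chr8:75109359-75109508, plus strand: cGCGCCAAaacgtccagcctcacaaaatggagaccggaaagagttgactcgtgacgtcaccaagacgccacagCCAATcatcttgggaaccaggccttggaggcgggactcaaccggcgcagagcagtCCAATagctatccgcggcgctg
Mcm6, chr1:128359706-128359855, minus strand: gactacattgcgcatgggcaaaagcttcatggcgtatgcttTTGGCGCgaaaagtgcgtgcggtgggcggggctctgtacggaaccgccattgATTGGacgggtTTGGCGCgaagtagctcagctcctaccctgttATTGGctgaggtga
Cdc20, chr4:118437344-118437493, minus strand: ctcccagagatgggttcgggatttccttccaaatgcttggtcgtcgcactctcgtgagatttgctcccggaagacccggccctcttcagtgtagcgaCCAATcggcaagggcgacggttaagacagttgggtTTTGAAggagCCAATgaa
Cdk1, chr10:69352913-69353062, minus strand: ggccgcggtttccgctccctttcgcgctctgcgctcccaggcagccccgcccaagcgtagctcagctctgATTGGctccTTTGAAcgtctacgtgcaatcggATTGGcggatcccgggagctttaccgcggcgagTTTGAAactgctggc
Mki67, chr7:135716380-135716529, minus strand: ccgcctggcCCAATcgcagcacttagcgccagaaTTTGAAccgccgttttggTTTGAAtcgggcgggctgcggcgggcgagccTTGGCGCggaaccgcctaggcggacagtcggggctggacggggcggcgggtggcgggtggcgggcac
In these stretches *Mcm5* holds 1 E2F core, *Mcm6* holds 2, and both hold 2 CCAAT boxes and no CHR element. *Cdc20* holds 2 CCAAT boxes and 1 CHR element, *Cdk1* holds 2 of each, and *Mki67* holds 1 E2F core, 1 CCAAT box and 2 CHR elements. Around each of these 5 starts the fold enrichment was 5.31 to 9.17 in the control stomach list.

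The adult intestine was compared with the embryonic intestine to give the level of these genes outside development. All 36 genes passed the threshold, as did 72.1% of all 18170 genes tested, and 35 were lower in the adult control (35% of all genes) and 1 was higher (37% of all genes). The median log2 fold change of the 36 genes was -3.83 against 0.07 over all genes. *Ccna2*, the cyclin of S phase and G2, was at 218 and 224 CPM in the embryonic control and at 1.02 and 2.52 CPM in the adult control (log2 fold change -6.56 ± 0.62). *Foxm1*, the activator of mitotic genes, was at 54.7 and 70.9 CPM in the embryo and had 0 and 11 counts in the adult, where a count of 0 allows up to 3 counts. *Mki67* was at 20.0 and 63.3 against 1.02 and 1.82 CPM (-4.47 ± 0.93).

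By role, the median log2 fold change was -4.58 for mitotic kinases and checkpoint genes, -3.23 for licensing genes and -2.16 for DNA synthesis. *Tyms* had the smallest fall, from 105 and 98.4 to 34.0 and 35.3 CPM (-1.17 ± 0.23). The D cyclins diverged. *Ccnd2* was at 213 and 240 CPM in the adult control against 1130.4 and 849 CPM in the embryo (-1.74 ± 0.18, adjusted p = 4.9e-05). *Ccnd1* was at 146 and 180 CPM against 90.6 and 56.6 CPM (1.53 ± 0.28, adjusted p = 0.00127), the only rise. On the TPM scale the median of the 36 genes was 3.14 in the adult control, with *Ccnd1* the highest at 109 TPM.

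The embryonic and adult libraries were made with different kits and counted separately, one stranded and the other not, and were sorted by different Cre drivers, so that stage and procedure cannot be told apart. In a joint fit the scaling differs from that of the CPM above, which was set within each stage. All 8 macrophage and leukocyte, all 8 lymphocyte and all 8 endothelial markers were higher in the adult control, against 37% of all genes, and their part was not tested. The wider lists held 44 of 46 other S phase genes and 49 of 51 other G2 and M phase genes lower in the adult, against 35% of all genes.

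In adult mice, libraries labelled *Eed* KO were compared with control. Of 35 genes tested (*Mybl2* was too low), 8 rose and none fell, against 23.5% of all genes called, 14.1% higher and 9.39% lower. They were *E2f1*, *Cdt1*, *Kif23*, *Ccne1*, *Mcm5*, *Pcna*, *Mcm3* and *Ccnd2*. The median log2 fold change was 0.96 against 0.00 over all genes, but 0.09 with 20 positive and 16 negative genes without KO replicate 1, and 1.38 without KO replicate 2. In the fit of all libraries, 17 genes had both KO libraries above both controls, against 32.3% of all genes.

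The genes that rose include several of the G1 to S transition. *E2f1*, the activating factor of S phase genes, was at 1.76 and 2.102 CPM in the control and at 15.9 and 12.8 CPM in the KO (2.89 ± 0.37, adjusted p = 0.00221). *Cdt1* was at 3.66 and 3.15 against 18.5 and 25.4 CPM (2.69 ± 0.32, adjusted p = 0.00164). *Pcna* was at 42.3 and 48.7 against 112 and 121 CPM (1.36 ± 0.19, adjusted p = 0.00318). These 3 genes were higher in both KO libraries, and each kept its call without any 1 of the 4 libraries. *Ccne1* was at 1.83 and 2.102 against 8.13 and 6.26 CPM (1.86 ± 0.45, adjusted p = 0.0247), and *Mcm5* at 7.68 and 11.0003 against 37.5 and 19.9 CPM (1.61 ± 0.37, adjusted p = 0.0214).

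Some genes were high in only 1 of the KO libraries. *Top2a* was at 10.9 and 16.05 CPM in the control and at 68.6 and 16.003 CPM in the KO, *Bub1* at 2.20 and 1.12 against 11.6 and 0.850 CPM, and *Kif11*, a spindle motor, at 2.41 and 4.20 against 14.8 and 1.01 CPM. KO replicate 1 was thus high and replicate 2 was at the control level or below it, and none of these genes passed. *Bub1b*, a spindle checkpoint kinase, was higher in both KO libraries, at 10.7 and 9.35 against 5.49 and 4.06 CPM, without a call (1.07 ± 0.36, adjusted p = 0.0749). Over the 36 genes, 26 were higher in KO replicate 1 than in replicate 2 by more than 0.5 on the log2 scale, and 1 (*Mybl2*) was lower by that much. *Kif23*, of the cytokinetic midzone, was at 1.17 and 2.17 against 12.6 and 6.96 CPM (2.54 ± 0.53, adjusted p = 0.0143). The median log2 fold change of the tested genes was 1.38 without KO replicate 2 and 0.09 without KO replicate 1. It was 0.88 without control replicate 1 and 1.11 without control replicate 2.

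**Figure D5:**
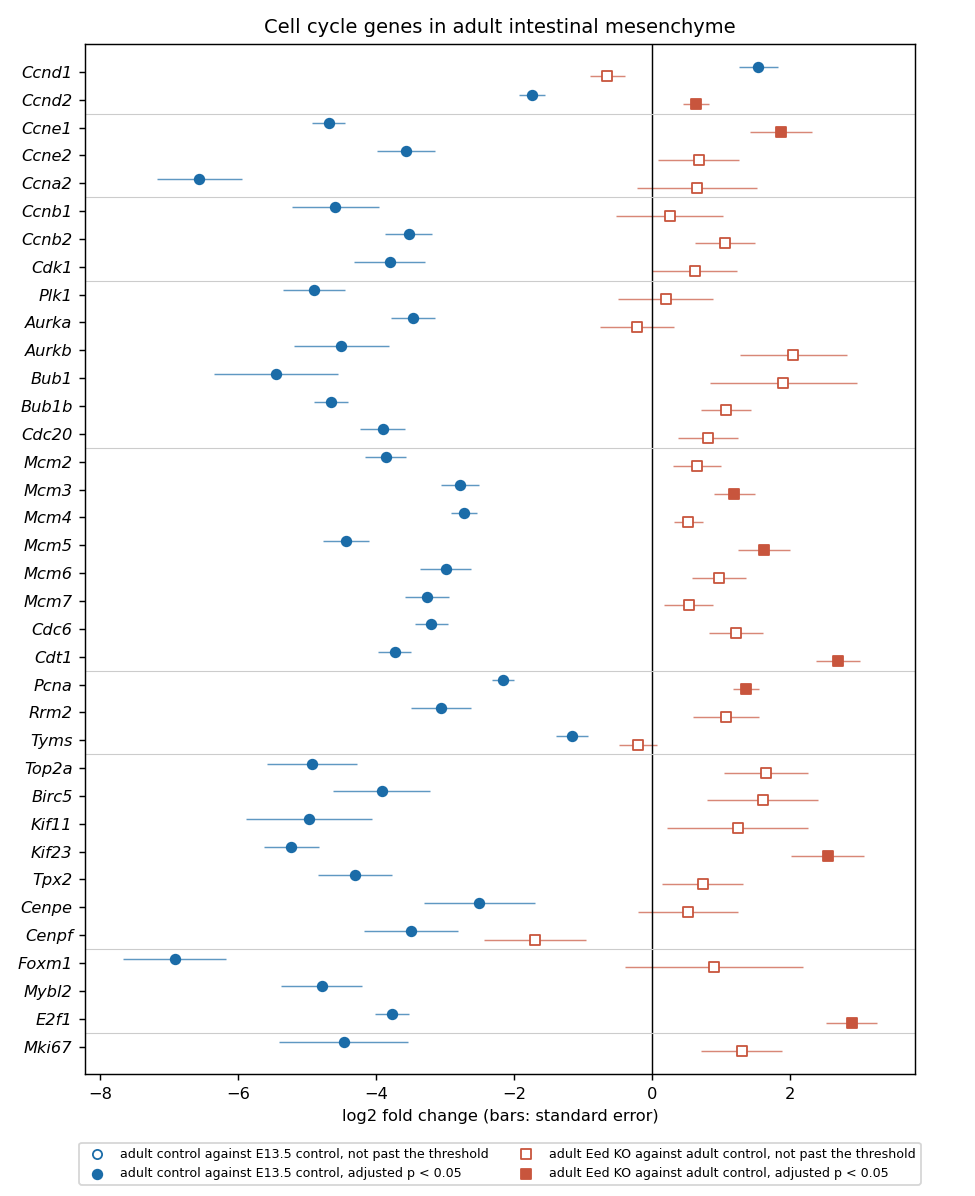
Log2 fold change of the 36 genes in the adult control against the E13.5 control intestine (blue circles) and in adult libraries labelled *Eed* KO against adult control (red squares), with standard errors as bars, filled symbols for an adjusted p under 0.05, and no KO value for *Mybl2*. The stage values lie left of 0 for 35 genes and right of 0 for *Ccnd1*, and the 8 filled KO symbols all lie right of 0.

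*Ccnd1* was lower in both adult KO libraries, at 125 and 83.2 CPM against 146 and 180 CPM, without a call (-0.65 ± 0.25, adjusted p = 0.106). Its *Eed* effect was 1.69 in the embryonic intestine, and the difference of the effects, -2.34 ± 0.40, passed the threshold (adjusted p = 0.00948). A difference by stage was called for 10 of the 36 genes, against 11% of all genes (6.14% with a higher and 4.88% with a lower adult effect), and for the other 9 the adult effect was the higher. That count ranged from 4 without embryonic control replicate 1 to 22 without adult KO replicate 2, and was 5 without embryonic control replicate 2 or adult control replicate 1. Among the brakes, *Cdkn1a* was at 66.6 and 61.4 CPM in the adult control and at 590.4 and 1232 CPM in the KO (3.83 ± 0.37, adjusted p = 0.000709). *Mdm2*, a p53 target in the same list that restrains p53 and is not itself a brake, rose by 3.18. *Cdkn2a* had 0 counts in the adult control and 4 and 3 counts in the KO and was not tested, and *Cdkn2b* did not pass (0.57 ± 0.96, adjusted p = 0.710).

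Other cell types moved with the adult comparison. Macrophage and leukocyte markers summed to 609 and 806 CPM in the control and to 15381 and 13302 CPM in the KO, and all 8 were called higher. Mesenchymal markers summed to 11385 and 11901 CPM in the control and 4984 and 3481 CPM in the KO, with 4 of 7 called lower. Smooth muscle markers had 4 of 6 and endothelial markers 2 of 8 called higher. The part of these cells in the adult results on the cell cycle genes was not tested. Of the other lists, 4 of 46 S phase genes and 3 of 48 G2 and M phase genes rose, shares below the 14.1% of all genes, including *Chaf1b* of the chromatin assembly factor (2.24) and *Ccnf*, a cyclin F-box protein (2.77), along with *Cks2*, a CDK subunit (2.77), *Myc* (1.83) and *Rb1* (1.84). The kinase gene *Cdk7* fell (-0.65), as did *E2f6*, a repressive E2F factor (-2.16).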

How the data were processed

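RNA-seq counts per gene were deposited by the authors as whole numbers, after trimming with Trimmomatic 0.32, alignment with STAR 2.5.1b to mm10 and counting with featureCounts on GENCODE vM4. For accessible regions the authors pooled replicates before MACS2 2.1.2, and the deposited lists give fold enrichment and −log10 q per peak.

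Spike-in transcripts were left out of library sizes and tests. Counts were fitted with edgeR 4.0.16 (R 4.3.3) with TMM scaling, filterByExpr and the quasi-likelihood test, with Benjamini-Hochberg adjustment over all genes tested (16218 embryonic, 15039 adult, 18170 across stages). A call is an adjusted p under 0.05. All adjusted p-values are from this test unless another tool is named. Errors beside log2 fold changes are standard errors, with 2 libraries a group. The 8 embryonic libraries shared 1 fit, as did the 4 adult libraries, and stages were compared in a fit of the 8 intestinal libraries.

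The 36 genes and the other lists were chosen with earlier results of these data known. Values in every library were to be given for *Mki67*, *Ccnd1*, *Ccnd2*, *Cdk1*, *Mcm5* and up to 5 called genes a direction, and further genes shown by library were chosen after their values were seen. Alternatives were DESeq2 1.42.0, library totals, no filter, spike-in totals, RUVg with 1 factor, fewer libraries and a replicate block. The block was set within each genotype for the comparisons of organs, and by replicate number across groups for the others. The test was checked on simulated data. Reads were not used here.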

Additional observations from a re-analysis of the deposited data

Results flagged for a closer look

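In 10 of the 36 genes, and in 11% of all genes, the effect of *Eed* KO in the intestine differed between the adult and E13.5, by edgeR's quasi-likelihood test of the difference itself with Benjamini-Hochberg adjustment over 18170 genes. The adult effect was the higher, on the log2 scale, by 3.06 for *E2f1* (adjusted p = 0.00161), 2.70 for *Cdt1* (adjusted p = 0.00229), 2.63 for *Kif23* (adjusted p = 0.0141), 1.93 for *Ccne1* (adjusted p = 0.00727) and 1.88 for *Mcm5* (adjusted p = 0.0246). It was the higher by 1.59 for *Pcna* (adjusted p = 0.00395), 1.54 for *Cdc6* (adjusted p = 0.0192), 1.498 for *Mcm3* (adjusted p = 0.0344) and 1.21 for *Bub1b* (adjusted p = 0.0438). Under 4 other settings with all libraries kept, the call held in 2 for *Bub1b* and for *Mcm3*, and in 3 for *Cdc6*. Each other called gene kept its call in all 4. For *Ccnd1* the difference was -2.34 (adjusted p = 0.00948), with a rise in the embryo. Stage, Cre driver and library kit cannot be told apart in this comparison. Of 8 macrophage and leukocyte markers, 5 had a higher adult effect by the same test, with a median difference of 4.60 over the 8, and their part was not tested. *Eed* itself differed between the stages by 1.70 (adjusted p = 0.0074).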

How the results depend on the processing

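Of the values for named genes under the alternatives, 673 kept their direction and side of the threshold, 134 lost their call and 12 reversed. All 12 reversals came from spike-in scaling in the stomach, which moved the median of all genes to 2.39: *Ccne2* 1.74, *Ccnb1* 1.97, *Cdc20* 1.83, *Mcm5* 1.94, *Mcm6* 1.99, *Mcm7* 2.04, *Cdc6* 1.84, *Pcna* 1.86, *Rrm2* 1.90, *Tyms* 1.89, *Birc5* 1.81 and *Eed* 0.14. Of 36 genes, the number called under spike-in scaling was 36 in the stomach, 27 in the intestine and 0 between KO organs. Of all 16218 genes it was 15438, 13688 and 115, in that order. With RUVg, 1 of the 36 was called between control organs, 19 in the stomach, 12 in the intestine and 18 between KO organs. Of all 16218 genes, 1830, 1304, 1153 and 2134 were called, in that order. With only the groups compared, 7 of the 36 were called in the stomach and 0 between KO organs. Of all genes, 1287 of 15773 and 425 of 15848 were called. Without a filter, 15 of the 36 were called in the adult and 20 for the stage difference. Of all genes, 4732 of 25231 and 3283 of 27959 were called. With library totals, 5 were called in the adult, as were 5382 of 15039 genes, and the median of all genes moved to -0.49. The cause of these changes was not tested. Leaving out 1 library at a time gave 0 to 2 calls in the stomach, 0 to 1 in the intestine, 0 to 4 between KO organs, 4 to 16 in the adult, 35 to 36 for stage and 4 to 22 for the stage difference. Per the study's methods, both organs were taken from each animal. The sources used here do not say whether same-numbered libraries share embryos, and the number was not taken as a pairing. With a block of same-numbered libraries within each genotype, 3 genes were called between control organs, 23 between KO organs and 1 for the organ difference. With 1 term for replicate number across genotypes, 23 were called in the stomach and 2 in the intestine. Of all genes, 9.82% were called higher between KO organs with the former and 5.18% lower in the stomach with the latter. Deviations of same-numbered libraries correlated at 0.748 between the KO organs and at 0.370 between the control organs. The other embryonic pairs of groups had 0.138 to 0.282, and the adult pair had -0.0823. With 2 libraries a group, small differences could not be resolved, and adult genes near 0 counts had the widest errors.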

Other observations

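Some inhibitors of the cycle differed widely between the stages. *Cdkn1c*, the p57 gene, was at 1303 and 1285 CPM in the control intestine at E13.5 and at 3.88 and 2.94 CPM in the adult control (log2 fold change -8.18, adjusted p = 1.37e-06 by edgeR's quasi-likelihood test). *Cdkn1a*, the p21 gene, was at 1.66 and 1.08 CPM at E13.5 and at 66.6 and 61.4 CPM in the adult (5.92, adjusted p = 8.59e-06). *Gadd45g* and *Btg2*, growth arrest genes, were higher in the adult by 5.98 and 4.70 on the log2 scale. Of the 16 genes in the list of brakes, which includes *Mdm2*, 8 were higher and 5 lower in the adult, shares near those of all genes (37% higher and 35% lower), and stage, Cre driver and kit cannot be told apart.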
